A study of Rattus norvegicus with 18 samples.

Results

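Immediate-early genes are switched on within minutes of neuronal firing, without the synthesis of new protein, and their RNA is short-lived, so that their level in brain tissue is widely used as a record of recent neuronal activity. The 18 libraries of the study, 1 per rat pup, were scored by the mean of log2(TPM + 1) of *Fos*, *Egr1*, *Junb*, *Arc* and *Nr4a1*, where TPM is a length-corrected share of all transcripts. The 6 pups of each treatment group were ranked by this score, and the 3 highest of each group (9 libraries) were set against the 3 lowest of each group (9 libraries). The split was therefore chosen by these 5 genes, whose values are given as a description only, and the results concern the other genes.

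RNA came from the prefrontal cortex (PFC) of Sprague Dawley pups at postnatal day 14. Dams of the saline group (SAL, 6 pups) were gavaged with vehicle. Dams of the postnatal group (PNO, 6 pups) received oxycodone (oxy), an opioid analgesic, at 15 mg/kg/day only after giving birth, which exposed the pups through the milk, while dams of the in utero group (IUO, 6 pups) were raised from 10 to 15 mg/kg/day before mating and kept on the drug, which exposed the pups before and after birth. No genetic change was involved. The labels give no dam, litter or time of dissection, so that pups of 1 group may share a dam, and the p-values measure the spread between these pups. Because the split was made from RNA of the same libraries, a p-value here describes how a gene moved with the score and is no test of a treatment.

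Among the SAL pups, numbers 3, 5 and 6 were high and numbers 1, 2 and 4 were low. Among the PNO pups, numbers 2, 3 and 5 were high and numbers 1, 4 and 6 were low. Among the IUO pups, numbers 1, 4 and 5 were high and numbers 2, 3 and 6 were low. Scores lay between 5.30 and 6.56 in the high libraries (median 5.69) and between 4.32 and 5.39 in the low libraries (median 4.90). Next to the cut, the lowest high pup and the highest low pup of SAL scored 5.69 and 5.39, those of PNO 5.30 and 4.90, and those of IUO 5.37 and 5.29. The step at the cut was thus 0.30 in SAL and 0.39 in PNO but 0.08 in IUO, and SAL 1, a low library, scored above PNO 5, a high one.

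**Figure D1:**
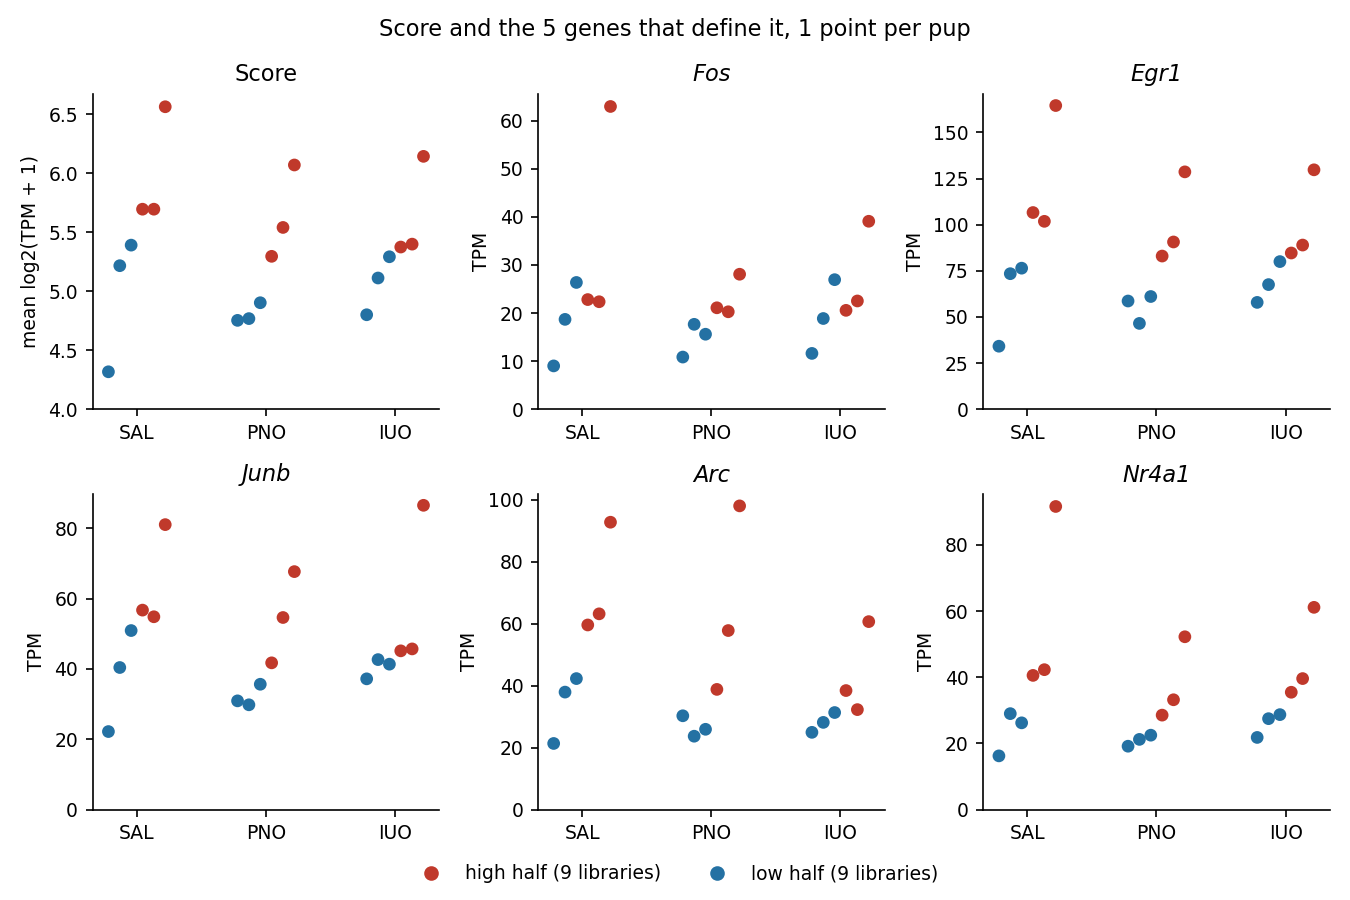
The score (mean log2(TPM + 1)) and the TPM of the 5 genes that define it, with 1 point per pup, ordered by score within SAL, PNO and IUO, red for the 9 high and blue for the 9 low libraries. The red and blue points are separated by the rule, and the step between them is smallest in IUO, where the lowest high pup scored 5.37 and the highest low pup 5.29.

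Levels below are CPM (counts as a share of the library total) after TMM normalization, which scales each library to a common composition and does not correct for gene length, and they compare a gene between libraries only. *Nr4a1*, a nuclear receptor, ran from 40.8 to 116 CPM in the high libraries (median 62.4) and from 25.7 to 43.1 in the low (median 38.0). *Egr1*, a zinc finger transcription factor, ran from 150.5 to 280.3 CPM (median 202.2) and from 78.4 to 153.4 (median 132.2). *Arc*, a cytoskeletal protein of dendrites, ran from 54.4 to 205.6 CPM (median 113.2) and from 46.9 to 74.8 (median 53.1). The ranges of *Fos* and *Junb*, which code for subunits of the AP-1 factor, overlapped as well, since the cut was made within groups and on the mean. *Fos* had a median of 22.2 CPM in the high and 17.5 CPM in the low libraries, and *Junb* 62.3 and 42.6 CPM. The fitted log2 differences of the 5 genes, on the log2 CPM scale, lay between 0.66 for *Junb* and 0.98 for *Arc*.

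Total expected counts lay between 18381819 and 26084780 per library, with a median of 20202182 in the high and 23365638 in the low libraries. Genes of the mitochondrial genome took 6.96% to 12.5% of the counts of a high library (median 9.92%) and 8.04% to 16.3% of a low one (median 10.7%). The Y-linked gene *Kdm5d* was under 1 CPM in 3 of 9 high and 3 of 9 low libraries, which are 1, 2 and 3 of 6 pups in SAL, PNO and IUO. *Eif2s3y*, also Y-linked, was at 0.0868 to 1.01 CPM in the same 6 libraries and at 65.1 to 88.7 CPM in the other 12. The labels give no sex, the study describes equal numbers of male and female pups in each group, and the difference was not resolved. The part of depth and mitochondrial share in the results below was not tested.

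High and low libraries were compared by edgeR's quasi-likelihood test with treatment group as a factor, and p-values were adjusted by Benjamini-Hochberg over the 16174 genes tested, which leave out the 5 score genes. At an adjusted p-value under 0.05, 273 genes (1.69%) were called, of which 110 (0.68%) were higher and 163 (1.01%) lower in the high libraries, while 2406 genes (14.9%) had an unadjusted p-value under 0.05. DESeq2 called 406 higher and 400 lower and limma-voom 324 and 310, and edgeR without IUO 3 called 228 and 216, so that lower calls did not outnumber higher ones there. The median log2 fold change was 0.37 among the genes called higher and -0.73 among those called lower, while over all genes tested it was 0.01. A change of at least 1.5-fold was reached by 21 of the higher and 98 of the lower genes. In 15 genes (0.0927%) the CPM of the 9 high and 9 low libraries did not overlap, 5 of them higher and 10 lower.

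The number of genes called depended on the split. When the score was taken from TMM-normalized CPM in place of TPM, IUO 3 and IUO 5 changed sides and 2 genes were called. Leaving out 1 library at a time gave between 88 and 444 genes. The count fell to 134, 145, 111 and 99 without SAL 1, 3, 4 and 5, to 101 and 88 without PNO 3 and 6, and to 170, 132 and 147 without IUO 2, 5 and 6, and it was 424 without PNO 1 and 444 without IUO 3. All 273 genes kept their direction in the re-scored split and in each of the fits that left out a library. Fitted in the 6 libraries of 1 treatment group alone, none was called by edgeR in SAL, PNO or IUO, with 1415, 829 and 568 genes at an unadjusted p-value under 0.05. The direction in SAL alone was that of all libraries for 264 of the 264 genes that could be fitted there, and it was so for 265 of 265 in PNO and 264 of 264 in IUO. These libraries are those of the main comparison and are no independent check.

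**Figure D2:**
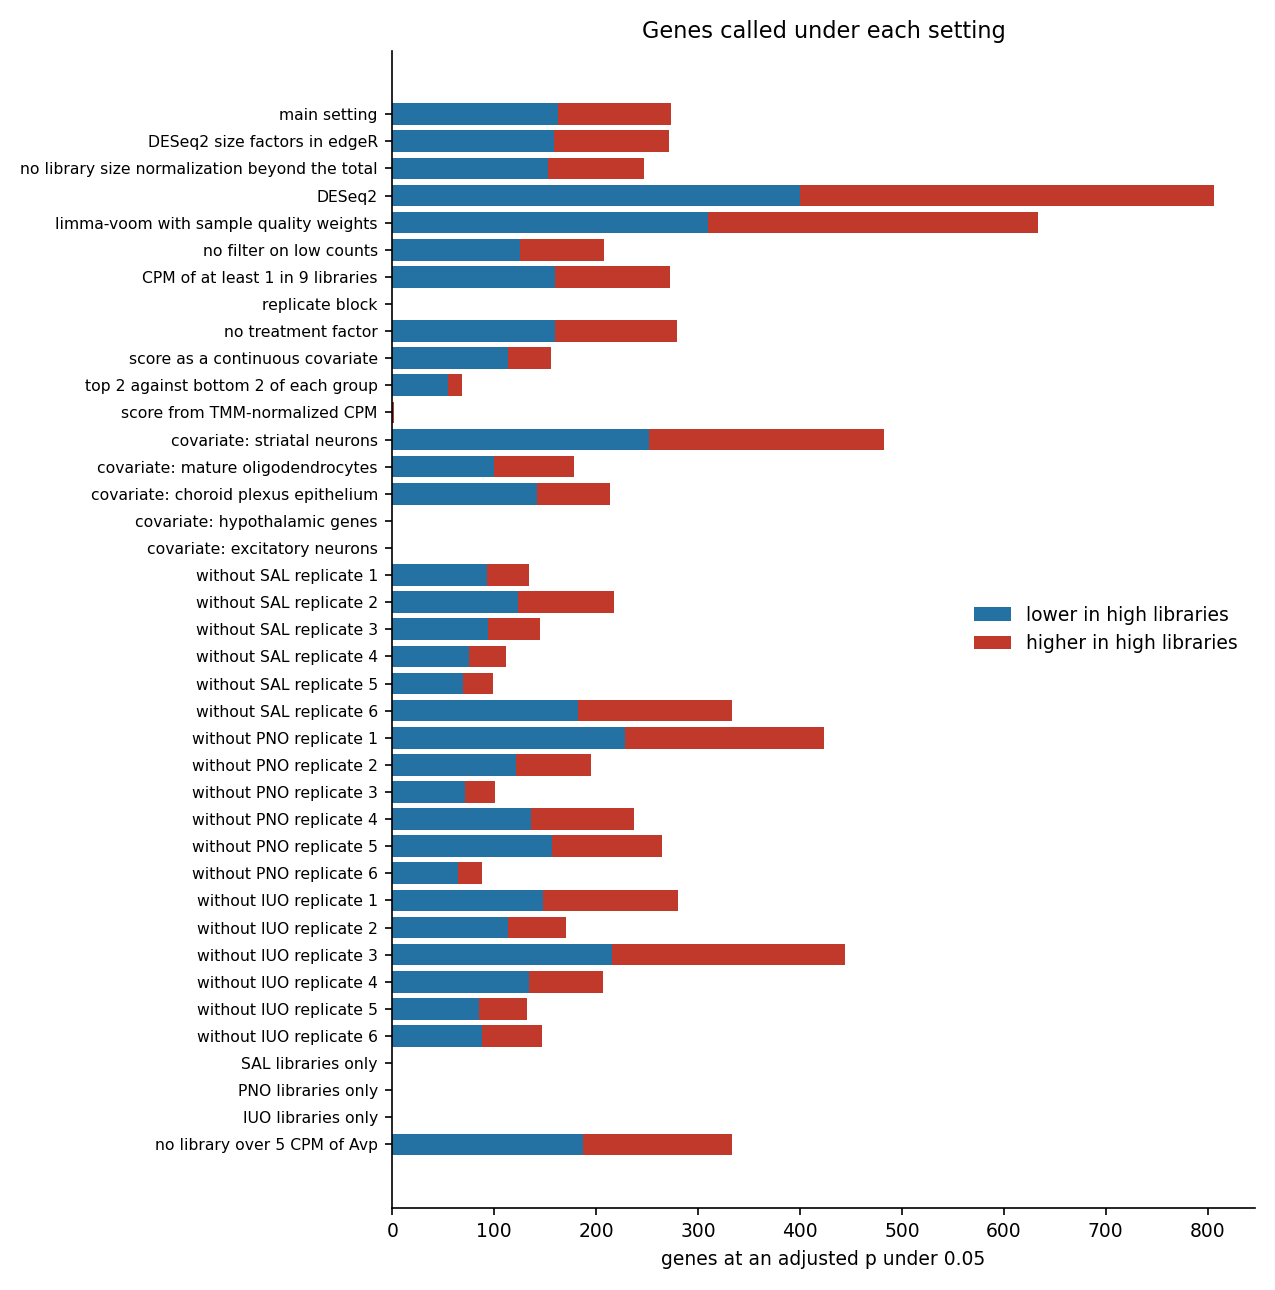
Number of genes at an adjusted p-value under 0.05 (x axis) under each setting (y axis), blue for genes lower and red for genes higher in the high libraries. The main setting called 273 genes, the score from TMM-normalized CPM 2, and the fits without 1 library 88 to 444.

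Whether the difference between high and low libraries depended on treatment was tested by an interaction of split and group. No gene was called by edgeR. The smallest adjusted p-value was 0.916, and 299 of the 16174 genes had an unadjusted p-value under 0.05. The count was also 0 with the size factors of DESeq2 and with another filter on low counts.

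Other genes of the activity response were followed in 4 lists without the score genes. Rapid transcription factors are the first genes switched on by calcium and MAP kinase signalling, feedback regulators such as the DUSP phosphatases shut that signalling down, and synaptic and secreted effectors carry the response to the membrane and beyond the cell. Over all genes tested, 0.68% were called higher, 1.01% lower and 52.2% had an estimate above 0. Of 28 rapid transcription factors, 3 were called, all higher, and 23 had an estimate above 0, with a median log2 fold change of 0.34 beside 0.01 over all genes. Of 27 feedback regulators, 1 was called higher and 23 were above 0 (median 0.20). Of 22 effectors, 1 was called higher and 1 lower, with 17 above 0 (median 0.18). Of 27 genes of the upstream signalling path, 0 were called by edgeR, with 5 at an unadjusted p-value under 0.05, beside 14.9% of all genes, and 21 above 0 (median 0.14), while DESeq2 called 2 and limma-voom 1.

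*Egr4*, a zinc finger transcription factor of the same family as *Egr1*, ran from 32.1 to 60.6 CPM in the high libraries (median 48.1) and from 17.7 to 43.1 in the low (median 27.5). The groups overlapped. Its log2 fold change was 0.78 ± 0.15 (SE), with an adjusted p-value of 0.0183 (edgeR). *Per1*, a repressor of the circadian clock that is also induced through cyclic AMP and by glucocorticoids, ran from 42.2 to 73.1 CPM (median 50.1) and from 28.8 to 48.4 (median 41.6). It rose by 0.43 ± 0.10 (SE) on the log2 scale (edgeR, adjusted p = 0.0332). *Klf10*, a Krüppel-like factor of TGF-β signalling, ran from 37.5 to 53.7 CPM (median 46.6) and from 28.8 to 40.0 (median 36.9), a log2 fold change of 0.37 ± 0.08 (SE) at an adjusted p of 0.0265 (edgeR). The call of *Klf10* was lost without SAL 3 or 5, PNO 3 or PNO 6 (adjusted p 0.0505 to 0.0642), and that of *Per1* without SAL 2, 3 or 5, PNO 3 or 6, or IUO 2, 5 or 6 (adjusted p 0.0501 to 0.0797).

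*Dusp6*, the phosphatase that removes the activating phosphates of ERK, ran from 48.1 to 75.4 CPM in the high libraries (median 58.9) and from 33.1 to 56.0 in the low (median 41.1). It rose by 0.56 ± 0.10 (SE) on the log2 scale (edgeR, adjusted p = 0.0102). *Dnajb5*, a co-chaperone of the HSP40 family, ran from 173.9 to 220.4 CPM (median 208.8) and from 135.7 to 182.1 (median 154), with a log2 fold change of 0.35 ± 0.07 (SE) and an adjusted p-value of 0.0153 (edgeR). The granin *Scg2*, a precursor of secretory granule peptides that belongs to the effector list, moved the other way. It ran from 118.4 to 223.5 CPM in the high libraries (median 157.2) and from 161.9 to 356.2 in the low (median 228.9), a log2 fold change of -0.55 ± 0.11 (SE) at an adjusted p of 0.0244 (edgeR). The call of *Scg2* was lost without SAL 5, PNO 3, PNO 6, IUO 5 or IUO 6 (adjusted p 0.0519 to 0.0618).

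Most of the activity genes named whatever their value did not pass the threshold with edgeR. With DESeq2, *Egr2*, *Egr3*, *Fosb*, *Btg2* and *Dusp1* passed, and with the score as a continuous covariate *Egr2*, *Fosb*, *Btg2*, *Dusp1* and *Ier2* did. *Fosb*, an AP-1 subunit, ran from 3.80 to 21.4 CPM in the high libraries (median 5.84) and from 1.81 to 7.86 in the low (median 3.64), with a log2 fold change of 1.03 ± 0.31 (SE) and an adjusted p-value of 0.0947 (edgeR). *Egr2* ran from 4.58 to 18.2 CPM (median 9.70) and from 2.12 to 7.47 (median 4.77), with a log2 fold change of 1.03 ± 0.27 (SE) and an adjusted p-value of 0.0578 (edgeR). Their estimates were as large as those of the score genes, and their spread between libraries was wide. The log2 fold change was 0.65 for *Egr3*, 0.55 for the phosphatase *Dusp1*, 0.52 for *Ier2*, 0.50 for the antiproliferative gene *Btg2*, 0.47 for the neuronal factor *Npas4*, 0.42 for *Nr4a3*, 0.40 for the scaffold gene *Homer1* and 0.32 for the pentraxin *Nptx2*, with adjusted p-values (edgeR) between 0.0821 for *Egr3* and 0.423 for *Npas4*. Other genes lay at or below 0, or close above it. *Jun* was at 0.00 ± 0.08 (SE), with medians of 70.9 CPM in the high and 70.3 CPM in the low libraries, and the neurotrophin gene *Bdnf* was at 0.18 ± 0.16 (SE). *Nr4a2*, an orphan receptor close to *Nr4a1*, was at -0.57 ± 0.47 (SE) and spanned 6.79 to 104.5 CPM among the low libraries alone. In the fits of single treatment groups it was at -1.91 in SAL, -0.82 in PNO and 1.08 in IUO, and the interaction of *Nr4a2* was not called.

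**Figure D3:**
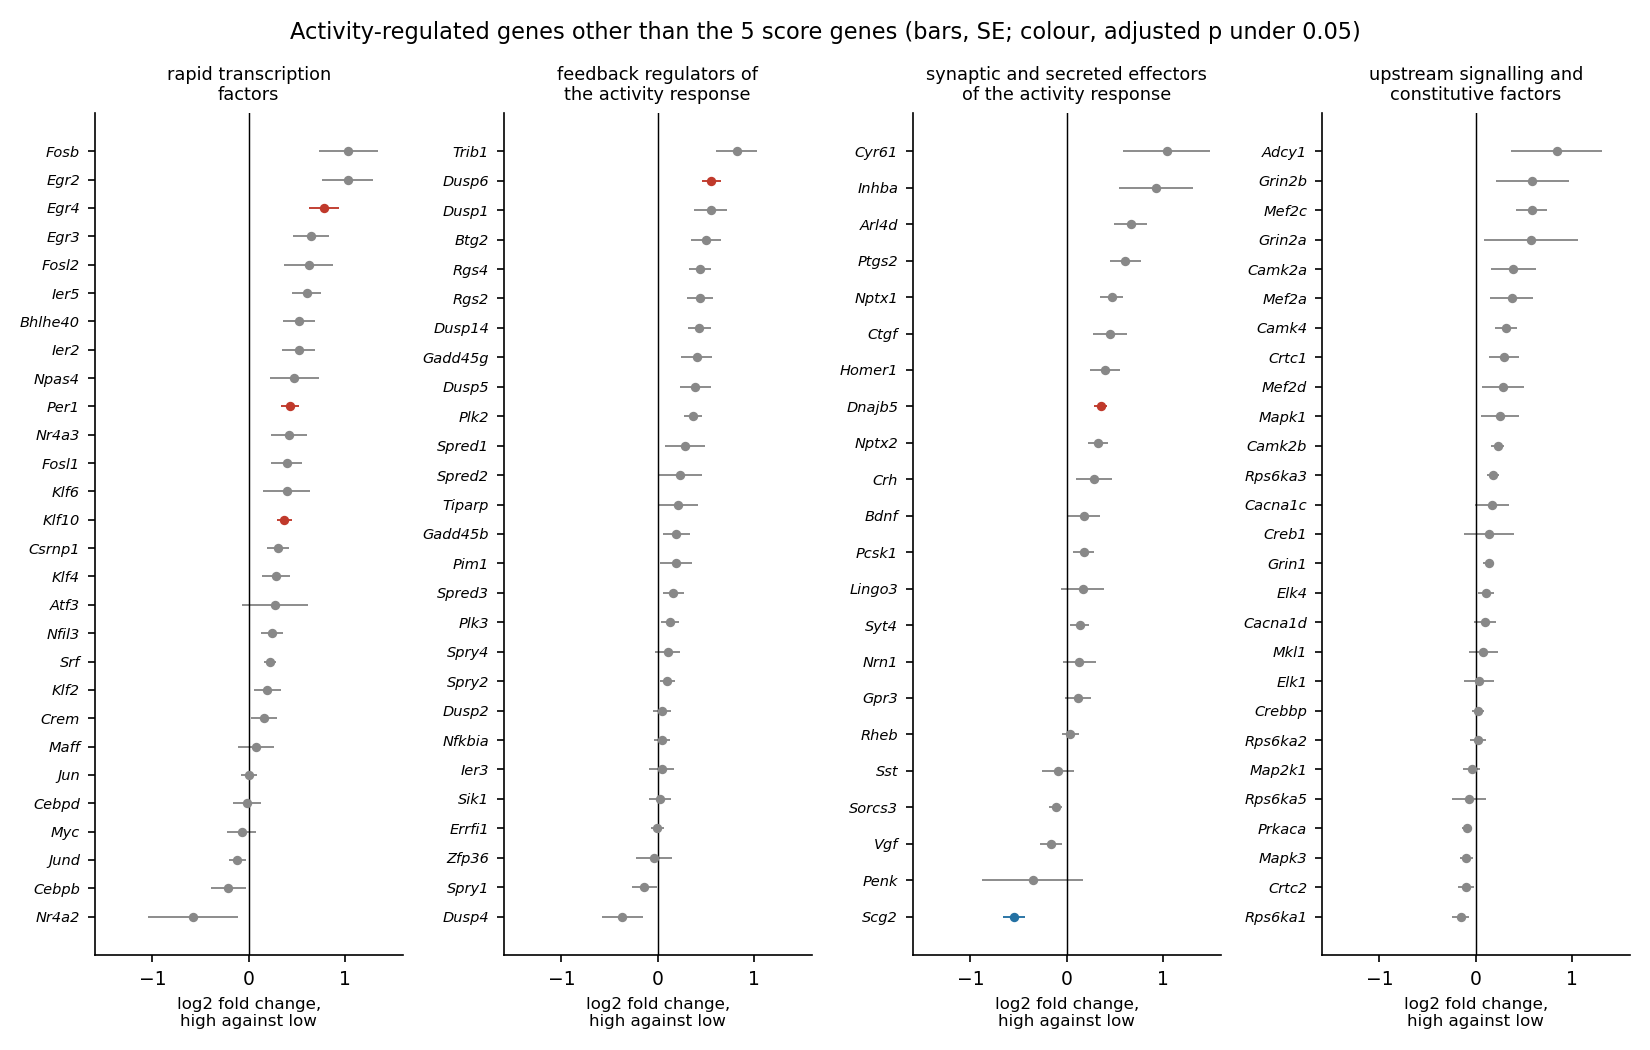
Log2 fold change of high against low libraries (x axis, with SE bars) for every tested gene of the 4 activity lists, without the 5 score genes, in red where called higher, blue where called lower and grey where not called. Most points lie right of 0, 5 genes are red (*Egr4*, *Per1*, *Klf10*, *Dusp6* and *Dnajb5*), *Scg2* is blue and *Jun* sits at 0.

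Promoter windows were read for genes of the activity response, of which 8 of 12 looked up were matched (*Fos*, *Arc*, *Klf10* and *Egr3* were not). The 250 bases before the start were taken from RefSeq (GRCr8) for 2 score genes, *Junb* and *Nr4a1*, and for 2 members of the *Egr* family, *Egr4* and *Egr2*, chosen because each holds at least 1 copy of TGACG, the shorter core of the cyclic AMP response element (CRE) bound by CREB. Capitals mark TGACG on either strand (CGTCA where it lies on the other strand) and, in *Egr2*, the CArG box bound by serum response factor. They lie at chr19:40080876-40081125 on the plus strand (*Junb*), chr7:134259888-134260137 on the plus strand (*Nr4a1*), chr4:119607818-119608067 on the minus strand (*Egr4*) and chr20:21054442-21054691 on the minus strand (*Egr2*), each written 5′ to 3′ along the gene.
Junb: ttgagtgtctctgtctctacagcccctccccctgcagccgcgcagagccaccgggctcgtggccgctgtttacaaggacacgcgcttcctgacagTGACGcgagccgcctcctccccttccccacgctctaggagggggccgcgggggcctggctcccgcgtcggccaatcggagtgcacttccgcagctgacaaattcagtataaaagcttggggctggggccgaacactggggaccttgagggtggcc
Nr4a1: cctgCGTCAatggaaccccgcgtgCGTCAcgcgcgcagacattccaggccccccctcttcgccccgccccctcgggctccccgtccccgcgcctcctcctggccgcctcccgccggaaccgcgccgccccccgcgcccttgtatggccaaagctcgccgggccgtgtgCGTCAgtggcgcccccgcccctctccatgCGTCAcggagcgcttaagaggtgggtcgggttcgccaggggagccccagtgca
Egr4: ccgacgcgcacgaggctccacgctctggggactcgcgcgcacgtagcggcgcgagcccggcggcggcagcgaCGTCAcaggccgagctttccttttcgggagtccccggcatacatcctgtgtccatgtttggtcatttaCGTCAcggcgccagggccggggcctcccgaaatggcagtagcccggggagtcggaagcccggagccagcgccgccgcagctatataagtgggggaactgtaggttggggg
Egr2: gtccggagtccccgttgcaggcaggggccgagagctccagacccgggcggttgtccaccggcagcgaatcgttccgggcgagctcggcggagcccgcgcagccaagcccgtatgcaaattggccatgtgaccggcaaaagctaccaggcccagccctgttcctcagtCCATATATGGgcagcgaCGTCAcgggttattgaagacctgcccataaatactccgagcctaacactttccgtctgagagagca
The *Nr4a1* window held 4 copies of TGACG and the *Egr4* window 2, while *Junb* and *Egr2* held 1 each. Of 33469 promoter windows of the same length, 18.2% held TGACG, 1.59% the whole CRE (TGACGTCA, which contains TGACG), 1.5% a CArG box, 6.34% an AP-1 site (TGANTCA) and 5.59% an E-box (CACGTG), all searched on both strands. None of the 4 windows held the whole CRE, an AP-1 site or an E-box. The windows of *Per1*, *Dusp6* and *Fosb* held none of the 5 motifs, and that of *Dnajb5* held 1 TGACG. The copies of TGACG in the printed windows follow from how they were chosen. The matches describe letters in a window and were not measured as bound sites.

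The 10 genes with the smallest adjusted p-values among those higher in the high libraries included *Dusp6* and several genes of ion transport. *Atp2b2*, a plasma membrane pump that removes calcium, ran from 592.1 to 736.6 CPM in the high libraries (median 642.4) and from 428.5 to 595.2 in the low (median 485.5). The groups overlapped narrowly. *Atp2b2* rose by 0.41 ± 0.08 (SE) on the log2 scale (edgeR, adjusted p = 0.0147). *Kcnv1*, a potassium channel subunit that modifies the channels it joins, ran from 62.3 to 116.5 CPM (median 85.0) and from 33.3 to 79.8 (median 50.7), a log2 fold change of 0.76 ± 0.14 (SE) at an adjusted p of 0.0134 (edgeR). *Kcnh3*, which codes for a voltage-gated potassium channel of the forebrain, had medians of 159.2 and 106.3 CPM and a log2 fold change of 0.46 ± 0.09 (SE). *Nlk*, the Nemo-like kinase, showed no overlap. It ran from 93.4 to 115 CPM in the high and from 74.4 to 89.4 CPM in the low libraries, a log2 fold change of 0.29 ± 0.05 (SE) at an adjusted p of 0.0142 (edgeR).

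*Chrdl1*, which codes for a secreted antagonist of bone morphogenetic proteins, had the smallest adjusted p-value among the genes called higher (edgeR, 0.00706). It ran from 11.9 to 21.1 CPM in the high libraries (median 15.1) and from 7.07 to 13.0 in the low (median 9.57), a log2 fold change of 0.75 ± 0.12 (SE). *Pik3r2*, a regulatory subunit of phosphoinositide 3-kinase, rose by 0.34, *Hs3st2*, an enzyme that sulfates heparan sulfate, by 0.60, and the zinc finger gene *Zfp157* by 0.37 on the log2 scale. *Myoz1*, best known as a protein of the muscle Z-disc, was called at a very low level, 0.167 to 0.531 CPM in the high and 0.0418 to 0.197 CPM in the low libraries. *Myoz1*, with 68 counts over the high and 21 over the low libraries, passed the filter on low counts only through the high libraries. It had to differ, so that nothing is read from its call.

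A list of 53 tested genes of the postsynapse and of ion transport was put together after values had been seen, and its count is a description. Of its members, 8 were called and all 8 were higher, and 45 of 53 had an estimate above 0 (median log2 fold change 0.24), beside 0.68% called higher and 52.2% above 0 over all genes. Beside *Atp2b2*, *Kcnv1* and *Kcnh3*, they included *Gabra4*, a GABA-A receptor subunit (0.43 ± 0.09 SE), *Dlgap3* (0.37 ± 0.07 SE) and *Dlg4* (0.35 ± 0.07 SE), which code for scaffolds of the postsynaptic density, and *Cacnb3*, a calcium channel subunit (0.33 ± 0.06 SE). *Dlg4*, which codes for PSD-95, ran from 763.9 to 998.9 CPM in the high libraries (median 840.1) and from 559.6 to 765 in the low (median 697.5). The calls of *Gabra4* and *Dlgap3* were lost in 5 and 2 of the fits that left out a library. Excitatory neuron markers moved with this list, with 7 of 8 above 0, a median log2 fold change of 0.44 and sums of 2911 to 5453 CPM in the high against 1933 to 3669 CPM in the low libraries. With those markers without *Slc17a6* as a covariate, chosen after the data were seen, 0 of the 8 members were called by edgeR, and the log2 fold change was 0.15 for *Atp2b2*, 0.16 for *Kcnh3*, 0.14 for *Dlg4*, 0.22 for *Dlgap3*, 0.20 for *Cacnb3*, 0.40 for *Gabra4* and 0.50 for *Kcnv1*. The part of these markers in the result was not tested.

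Genes lower in the high libraries were led by *Baiap3*, which codes for a relative of the Munc13 priming factors that acts in the traffic of dense-core vesicles. *Baiap3* ran from 17.4 to 53.6 CPM in the high libraries (median 35.5) and from 63.5 to 148.4 in the low (median 110.5). The groups did not overlap. The log2 fold change was -1.58 ± 0.22 (SE), with an adjusted p-value of 0.00523 (edgeR), and within single treatment groups it was -2.17 in SAL, -1.64 in PNO and -0.93 in IUO. *Resp18*, a protein of dense-core secretory granules, fell by 1.04 on the log2 scale, from a median of 80.0 CPM in the low to 39.0 CPM in the high libraries. *Nrsn2*, a neuronal vesicle membrane protein, fell by 0.74, and *Gpr165*, a receptor gene, fell by 1.71 on the log2 scale.

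The metalloproteinase inhibitor *Timp4* ran from 5.29 to 10.1 CPM in the high libraries (median 7.44) and from 8.70 to 25.0 in the low (median 17.3), a log2 fold change of -1.04 ± 0.14 (SE) at an adjusted p of 0.00523 (edgeR). *Arhgap24*, which switches off the small GTPase Rac, held between 5.38 and 6.39 CPM in all 9 high libraries and spread from 6.12 to 16.1 CPM in the low. The transporter-family gene *Slc35g2* fell by 0.62 on the log2 scale. *Otp*, a homeobox gene of developing hypothalamic neurons, was listed at 1 count over the 9 high libraries and 89 counts over the 9 low. The ratio of low to high was 82.8 per count sequenced, with an exact 95% interval from 14.5 to 3308. The interval covers counting error only. It leaves out that *Otp* passed the filter on low counts only through the low libraries. The low libraries themselves ran from 0 to 0.978 CPM.

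*Otp* was not alone. A list of hypothalamic genes was put together after these values were seen, so that its counts describe the libraries and test nothing. Of its 29 members, 21 passed the filter on low counts, and 10 of them, *Baiap3* included, were called, all lower. Several members, such as *Otp*, *Sim1* and *Oxt*, passed the filter only through the low libraries and had to differ, so that nothing is read from this count. Of the 8 members that did not pass, *Kiss1* had 66 counts over the high and 45 over the low libraries and *Rax* 2 and 0. The others had fewer counts over the high libraries. *Hcrt* had 27 and 134, *Hmx3* 3 and 23, *Hmx2* 3 and 17, *Six6* 4 and 10, *Nr5a1* 9 and 15, and *Nkx2-4* 3 and 4. The summed level of the list was 49.3 to 142.5 CPM in the high libraries and 186.9 to 420.3 CPM in the low, with no overlap. The sum holds *Baiap3*, which did not overlap on its own, so that this gap is no separate result. *Irs4*, an adaptor of insulin signalling, ran from 0.314 to 6.6 CPM in the high and from 6.44 to 25.3 CPM in the low libraries. *Calcr*, the calcitonin receptor, ran from 0.126 to 8.57 CPM (median 1.21) and from 4.24 to 27.7 CPM (median 12.2), a log2 fold change of -3.19 ± 0.55 (SE) at an adjusted p of 0.0102 (edgeR).

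The hypothalamic peptide genes *Avp*, *Oxt* and *Pmch* were called. *Oxt* had passed the filter only through the low libraries, so that nothing is read from its call. *Avp*, the vasopressin precursor, was above 5 CPM in SAL 1, PNO 1, IUO 3 and IUO 6 alone, all of them low, and at most 1.11 CPM in every high library. *Oxt*, the oxytocin precursor, reached 42.5 CPM in the low libraries but had a median of 0.246 CPM there and was at most 0.369 CPM in the high. *Pmch*, the precursor of melanin-concentrating hormone, reached 54.0 CPM in the low library PNO 1 and 1.11 CPM in the high libraries. Its median was 1.12 CPM in the low and 0.471 CPM in the high libraries. The log2 fold change was -3.91 in all libraries and -2.46 without PNO 1. Other peptide genes were not called. *Trh*, the precursor of thyrotropin-releasing hormone, reached 27.3 CPM in the high library SAL 6 and at most 25.3 CPM in the low libraries. Its medians were 3.09 CPM in the high and 6.21 CPM in the low libraries, a log2 fold change of -1.11 ± 0.61 (SE). The log2 fold change was also below 0 for *Gal* (-0.84), *Pomc* (-0.75), *Ghrh* (-0.73) and *Cartpt* (-0.33). *Sim1*, a transcription factor of the paraventricular nucleus, had 202 counts over the low and 5 over the high libraries. The calls of *Pmch*, *Oxt* and *Sim1* were lost in 13, 12 and 14 of the 18 fits that left out a library, and that of *Asb4*, a ubiquitin ligase subunit of hypothalamic neurons, in 6.

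Without the 4 libraries above 5 CPM of *Avp*, a setting chosen after the data were seen, 333 genes were called, 160 of them among the 273, and 271 of the 273 kept their direction. With the hypothalamic list as a covariate, also chosen after the data were seen, edgeR called 0 genes, with 942 at an unadjusted p-value under 0.05, and 271 of the 273 kept their direction. The summed level of this list, chosen on the same libraries and holding *Baiap3*, did not overlap between the high and the low libraries. What the loss of calls rests on was not tested. Under this covariate the log2 fold change was 0.68 for *Egr4*, 0.49 for *Dusp6*, 0.15 for *Nlk*, 0.16 for *Atp2b2*, 0.19 for *Kcnh3*, 0.31 for *Dlg4* and -1.12 for *Baiap3*. *Baiap3* is itself part of the covariate. In bulk tissue, fewer cells of a type and less RNA per cell cannot be told apart.

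Genes of the thalamus and of basal forebrain cholinergic neurons, in a list also made after values were seen, were examined next. Of 12 tested, 3 were called lower and 12 had an estimate below 0 (median log2 fold change -1.34). Over all genes, 1.01% were called lower and 52.2% had an estimate above 0. *Gbx2*, with 30 counts over the high and 214 over the low libraries, owed its pass of the filter to the low libraries. It had to differ, so that nothing is read from the count of 12. *Slc17a6*, the vesicular glutamate transporter of subcortical neurons, ran from 15.3 to 91.1 CPM in the high libraries (median 35.9) and from 27.8 to 178.8 in the low (median 94.9), and its call (edgeR, adjusted p = 0.0492) was lost in 14 of 18 fits without 1 library. *Tcf7l2*, a Wnt effector strongly expressed in thalamic neurons, fell by 1.84 on the log2 scale, with the call lost in 8 of those fits. *Slc5a7*, the choline transporter of cholinergic neurons, fell by 1.5 on the log2 scale, with the call lost without SAL 5 (adjusted p 0.0515).

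Imprinted genes, which are expressed from 1 parental copy and many of which are abundant in the hypothalamus, formed the other large set. The list, made after values were seen, had 29 tested rows, of which 10 were called lower and 5 had an estimate above 0 (median log2 fold change -0.43), beside 1.01% called lower and 52.2% above 0 over all genes. *Grb10*, an adaptor that binds the insulin receptor, ran from 57.6 to 75.3 CPM in the high and from 75.7 to 103.9 CPM in the low libraries. These ranges did not overlap, and the log2 fold change was -0.44 ± 0.07 (SE) at an adjusted p of 0.00523 (edgeR). *Magel2*, which lies in the Prader-Willi region, ran from 5.13 to 15.0 CPM (median 10.0) in the high libraries and had a median of 18.9 CPM in the low, again without overlap. *Dlk1*, a Notch-family ligand, fell by 2.0, *Nap1l5* by 1.10, *Nnat*, which codes for neuronatin, by 0.91, *Peg3* by 0.51 and *Impact* by 0.43 on the log2 scale, and the remaining calls were *Calcr*, *Asb4* and 1 of the rows of *Gnas*, whose call was lost without SAL 3, 4 or 5, PNO 3 or 6, or IUO 6 (adjusted p 0.0525 to 0.0809). *Calcr*, *Asb4* and *Magel2* are in the hypothalamic list too. Other imprinted genes did not pass the test. *Ndn*, *Snrpn* and *Ube3a* had log2 fold changes of -0.23, 0.09 and -0.04.

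**Figure D4:**
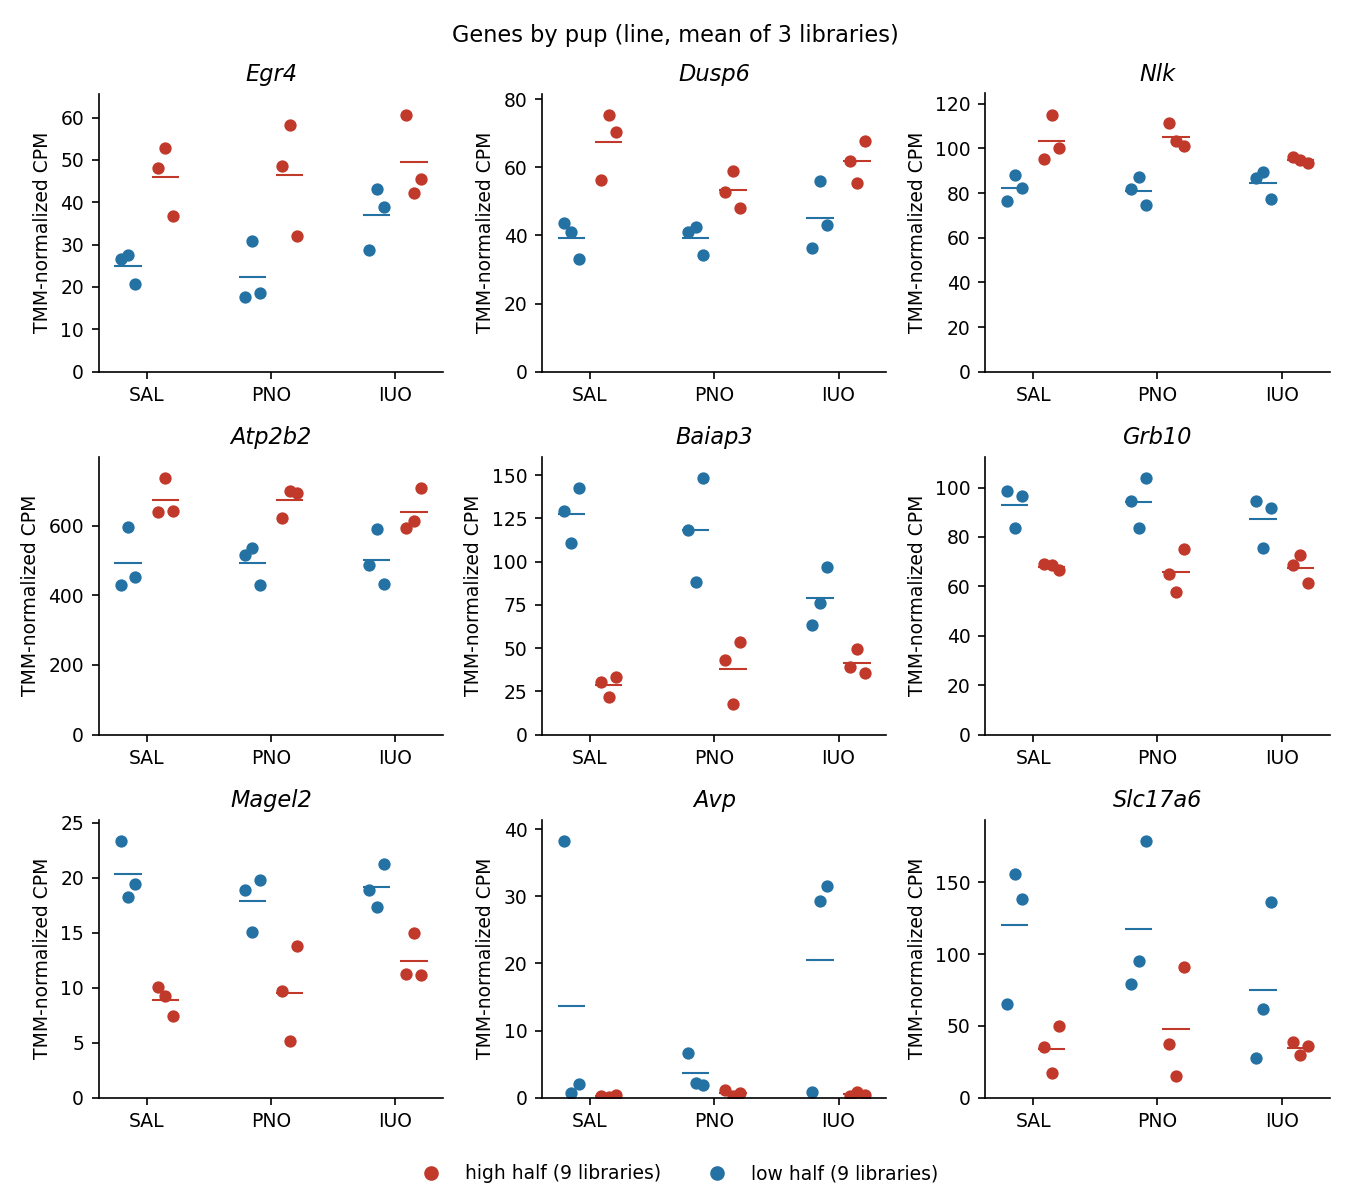
TMM-normalized CPM (y axis) of 9 genes in each pup of SAL, PNO and IUO (x axis), blue for low and red for high libraries, with lines at the mean of 3. *Egr4*, *Dusp6*, *Nlk* and *Atp2b2* are higher and the other genes lower in the high libraries, with no overlap for *Nlk*, *Baiap3*, *Grb10* and *Magel2*, and *Avp* is above 5 CPM in 4 low libraries only.

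Of 8 general excitatory neuron markers, *Slc17a6* was called lower and the other 7 had estimates above 0 without being called, with *Slc17a7*, the cortical vesicular glutamate transporter, at 0.41 ± 0.12 (SE; edgeR, adjusted p = 0.0814). *Slc17a7* ran from 1297 to 2049 CPM in the high and from 844.7 to 1548 CPM in the low libraries. Of the 8, *Slc17a6* included, 7 had an unadjusted p-value under 0.05, and the median log2 fold change was 0.44. The background for these and for the layer markers was 14.9% of all genes at an unadjusted p-value under 0.05, 0.68% called higher, 1.01% called lower and 52.2% above 0. Of 10 tested rows of upper-layer markers, 8 were above 0 (median 0.29), and 0 were called by edgeR, with 4 at an unadjusted p-value under 0.05. Deep-layer markers were split, with 6 of 11 above 0 (median log2 fold change 0.06), and 0 were called by edgeR, with 3 at an unadjusted p-value under 0.05. The summed level of the 8 excitatory markers was 2911 to 5453 CPM in the high and 1933 to 3669 CPM in the low libraries. With the excitatory list without *Slc17a6* as a covariate, chosen after the data were seen, edgeR called 0 genes, with 866 at an unadjusted p-value under 0.05, and 273 of the 273 kept their direction. The log2 fold change under it was 0.61 for *Egr4*, 0.36 for *Dusp6*, 0.17 for *Nlk* and -1.30 for *Baiap3*, and *Atp2b2*, *Kcnh3* and *Dlg4* were at 0.15, 0.16 and 0.14, as given above.

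No marker of the other cell types was called. None of 12 tested markers of mature oligodendrocytes was called by edgeR, with 1 at an unadjusted p-value under 0.05, beside 14.9% of all genes. The estimate was below 0 in 12 of 12 (median log2 fold change -0.39), while 52.2% of all genes were above 0. Their sum overlapped widely, from 1809 to 12240 CPM in the high and from 2933 to 15510 CPM in the low libraries. Choroid plexus markers had a median of -0.46, with sums of 53.2 to 648.5 and 72.2 to 1159 CPM, and striatal markers a median of 0.07, with sums of 212.1 to 1662 and 256.8 to 2144 CPM. With these lists as covariates, 178, 214 and 482 genes were called. Medians were -0.11 for astrocytes, 0.08 for microglia, 0.01 for endothelial and mural cells and -0.09 for inhibitory neurons, and 0 members of these 4 lists were called by edgeR, with 1, 1, 1 and 2 at an unadjusted p-value under 0.05.

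Some activity genes also answer to glucocorticoids and to time of day, and stress and clock genes were listed beside them. Of 20 tested rows of glucocorticoid-responsive genes, 1 was called, *Per1*, beside 1.69% of all genes, and the median log2 fold change was 0.07. *Fkbp5*, a glucocorticoid-induced co-chaperone, was at 0.02 ± 0.10 (SE), with medians of 28.5 CPM in the high and 26.5 CPM in the low libraries, and the kinase *Sgk1* was at 0.11 ± 0.09 (SE), with medians of 49.1 and 47.6 CPM. Medians were 0.04 for 16 heat shock genes, -0.01 for 15 genes of endoplasmic reticulum stress, 0.01 for 14 hypoxia-responsive genes and 0.23 for 7 inflammatory genes, and 0 of these were called by edgeR, with 2, 1, 1 and 2 at an unadjusted p-value under 0.05. DESeq2 and limma-voom each called 1 heat shock, 0 endoplasmic reticulum stress, 1 hypoxia-responsive and 1 inflammatory gene. Of 18 circadian clock genes, 1 was called, again *Per1*, 14 had an estimate above 0, and the median was 0.14. An unadjusted p-value under 0.05 (edgeR) was reached by 7 of the 18. Over all genes, 14.9% reached it and 52.2% had an estimate above 0. *Per2* was at 0.19 and *Nr1d1* at 0.10, both not called.

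**Figure D5:**
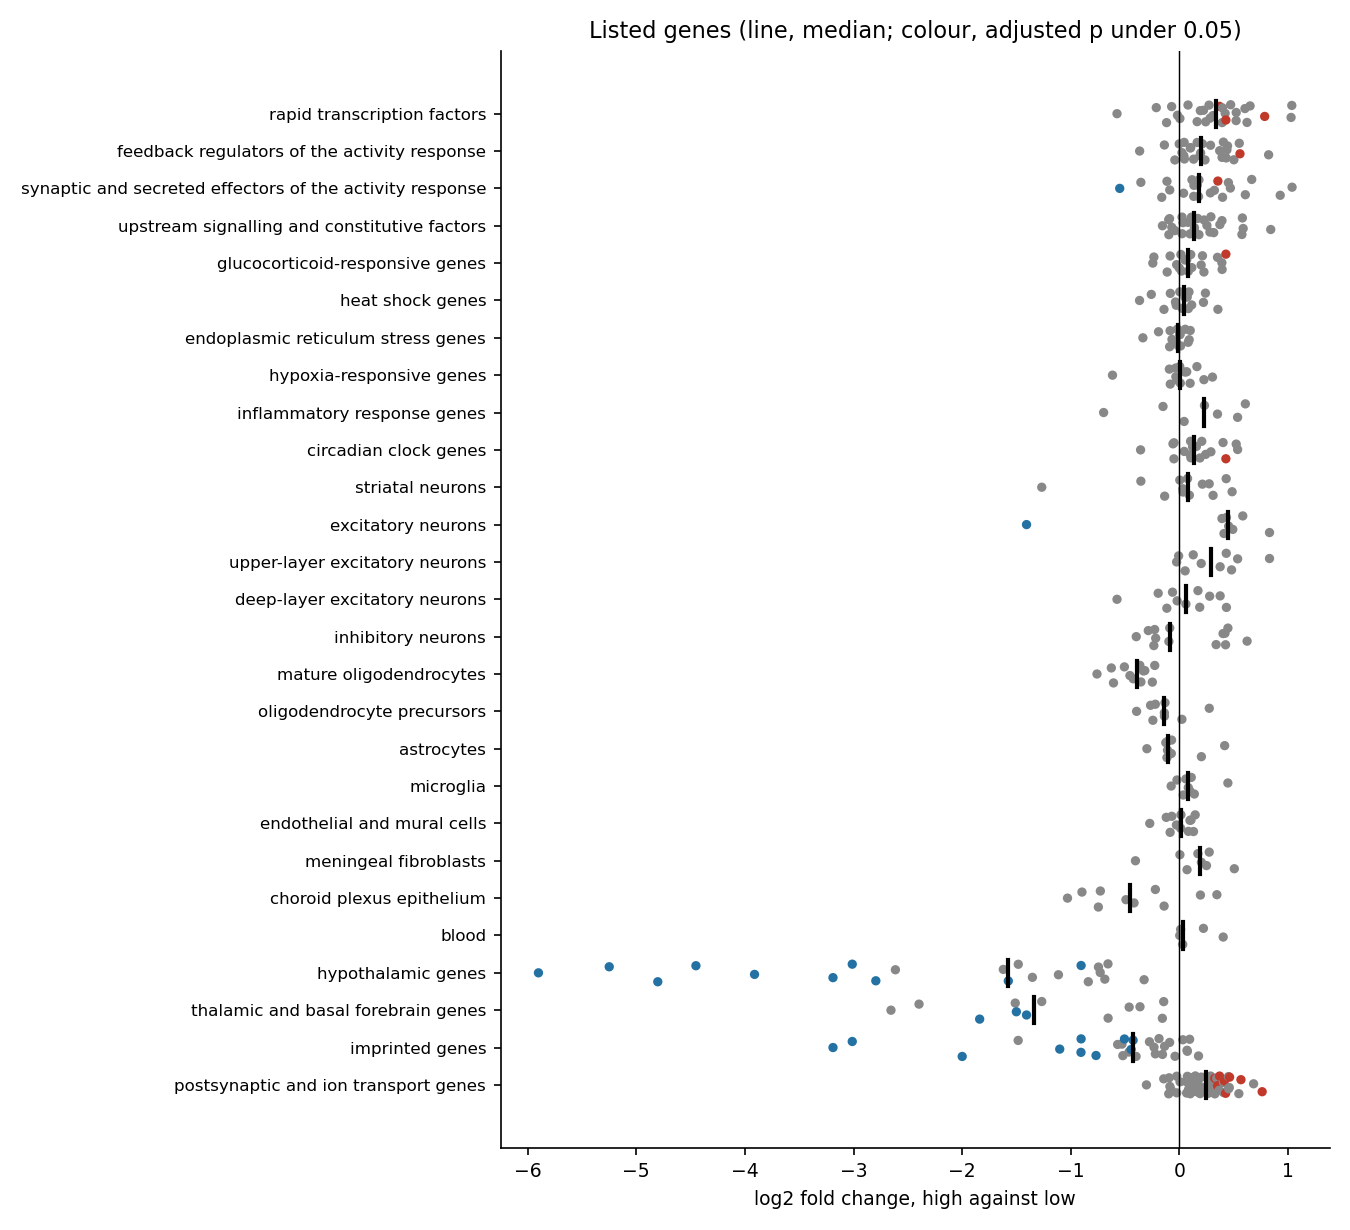
Log2 fold change of high against low libraries (x axis) for the tested members of each list (y axis), with a black line at the median, red for genes called higher and blue for genes called lower. The hypothalamic, thalamic and imprinted lists extend to the left. The hypothalamic and thalamic lists include members that owed their pass of the filter to the low libraries. The activity lists lie to the right, with medians from 0.14 to 0.34.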

How the data were processed

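RNA from the PFC of 18 pups was sequenced as 75-base single reads on 1 flow cell, per the labels. For each pup the authors deposited an expected count per gene, an estimate that divides ambiguous reads between genes, beside TPM values scaled to a common total and FPKM values, which were not used. The aligner, quantification program and genome build are not given in the sources used here.

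TPM, summed over rows with 1 symbol, set the score. The expected counts were rounded and fitted with edgeR 4.0.16 in R 4.3.3 (TMM, filterByExpr over the 6 combinations of group and split, two-sided quasi-likelihood test, treatment group and split as factors). Genes were called below an adjusted p of 0.05, whatever the fold. Log2 CPM used a prior count of 2. The genes named are the score genes, the 10 lowest adjusted p-values per direction among genes with a name, called members of the activity, stress and clock lists, and 18 activity and stress genes whatever their value. Other names were chosen after values were seen, as were the hypothalamic, thalamic, imprinted and postsynaptic lists. The members and all lists were chosen with earlier results of these data known.

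Alternatives were DESeq2 1.42.0, limma-voom (limma 3.58.1), other size factors and filters, a replicate block, re-scored splits, marker covariates, single groups and each library left out. The fits were tested on simulated data. No 2 libraries of a group looked like 1 library deposited again (chi-square per degree of freedom 11.2 to 200 over 45 pairs). Tables were made with Python, numpy, pandas and scipy, and plots with matplotlib. Results for some genes are not reported here.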

Additional observations from a re-analysis of the deposited data

Results flagged for a closer look

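In 132 sets of 9 libraries (66 genes in the high and the low libraries), 3 genes had 1 library that stood apart from the rest by Dixon's criterion on log2 CPM, which chance meets in about 1 of 20 groups. *Otp* was at 0.053 CPM in SAL 3 and listed at 0 in the other high libraries. *Sim1* was at 0.158 CPM in PNO 2, against 0.0536 CPM in the next of the high libraries, IUO 1. Both rest on a few counts. *Calcr* was at 4.24 CPM in IUO 3, against 11 CPM in PNO 1, the next of the low libraries. IUO 3 is also the library just under the cut in its group.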

How the results depend on the processing

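The count of 273 genes was 806 with DESeq2, 634 with limma-voom, 156 with the score as a continuous covariate, 68 with the top 2 against the bottom 2 of each group, 2 with the score from TMM-normalized CPM, 178 and 482 with oligodendrocyte and striatal covariates, 0 with hypothalamic or excitatory neuron covariates, 0 in SAL, PNO or IUO alone, and 119 with a fold change of at least 1.5. Each library left out in turn gave 88 to 444. Other size factors and filters gave 208 to 272 genes, and leaving any 1 gene out of the score moved no library. The interaction count was 0 with edgeR in the main setting, with the size factors of DESeq2 and with the CPM filter, the fits that were run.

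With the replicate number as a block, 0 genes were called, with 1356 at an unadjusted p-value under 0.05. The numbers do not pair the pups by the labels. Over 18 pairs with the same number, the mean correlation of deviations was 0.082 (range -0.287 to 0.471), against -0.016 for pairs with other numbers. Of the 18 pairs, 8 were above 0.1. The best match of a library among the 6 of another group had the same number in 11 of 36 cases.

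The sign turned for *Jun* and *Fkbp5*, which were near 0, and, in single groups or under covariates, for other genes: *Nr4a2* (1.08) and *Npas4* (-0.33) in IUO alone, *Sgk1* (-0.0365), *Bdnf* (-0.21), *Pmch* (0.88) and *Oxt* (2.22) with the hypothalamic covariate, *Bdnf* (-0.29) and *Jun* (-0.0533) with the excitatory covariate, and *Fkbp5* (-0.0822) in IUO alone. *Jun* was also at -0.0067 without normalization, -0.0117 with limma-voom, -0.0008 with the CPM filter, -0.0002 with the striatal covariate, -0.11 in SAL alone and -0.0692 in PNO alone. Without 1 library, *Jun* ran from -0.0523 to 0.0439 and *Fkbp5* from -0.0258 to 0.0853. *Pmch* and *Oxt* are themselves part of the hypothalamic covariate, so that their values under it are no reading of direction. The cause of these differences was not tested.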
